A study of Homo sapiens with 20 samples.

Results

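Hypoxia and glycolysis genes were followed as a set of 37 genes, out of 23368 genes counted, in RNA-seq libraries of the human lines Panc1, from a carcinoma of the pancreatic duct, and A549, from an adenocarcinoma of the lung. The rule that chose the members is a list of gene names by known role, drawn up with earlier results of these data known, and all 37 names were found. By role, 4 are sensors and factors, 11 are non-glycolytic targets of hypoxia-inducible factor (HIF), 6 are transporters and regulators, and 16 are glycolytic enzymes. Each line was measured in 4 conditions: an siRNA against KLF10 with TGFβ (siKLF10+TGFβ), TGFβ, siKLF10, and a control siRNA (siCont). The TGFβ treatment used 5 ng/ml over 72 h, in medium with serum and with no low-oxygen treatment named in the labels. The titles of the TGFβ libraries name no siRNA, and the sources used here do not say whether those cells also received the control siRNA. Panc1 had 3 libraries per condition and A549 had 2, lettered A, B and C, for 20 in all. The labels describe both lines as SV40 large T antigen immortalized, although both are known as carcinoma lines. They do not say whether each library of a condition is its own culture, so the p-values speak only of library-to-library spread, and that spread may be technical.

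HIF is a transcription factor made of an oxygen-regulated α subunit, encoded by HIF1A or EPAS1, and a constant partner. In oxygenated cells the prolyl hydroxylases encoded by EGLN1 and EGLN3 mark the α subunits for destruction, so HIF activity is set mostly at the protein level and HIF1A mRNA is a poor measure of it. Active HIF raises glucose transporters, nearly every glycolytic enzyme, lactate export and secreted angiogenic factors, and many carcinoma cells run this programme in part without hypoxia. TGFβ is known to act through SMAD factors and to induce several genes that HIF also induces. KLF10 is a zinc-finger factor that TGFβ induces early, and the series asked whether it restrains the epithelial-to-mesenchymal transition.

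KLF10, the targeted gene, was read in every library in CPM, gene counts relative to the library's total after TMM scaling within a line. In Panc1 its level was 101, 101 and 104 CPM with siKLF10+TGFβ, 192, 187 and 206 CPM with TGFβ, 82.95, 80.7 and 77.5 CPM with siKLF10, and 140.1, 137 and 130.2 CPM with siCont. Each Panc1 group given siKLF10 lay below its control group without overlap, and KLF10 fell in siKLF10 (log2 −0.76 ± 0.0603, adjusted p = 2.58e-09) and in siKLF10+TGFβ against TGFβ (log2 −0.94 ± 0.0593, adjusted p = 4.96e-11). In A549 its level was 151 and 142 CPM in the libraries labelled siKLF10+TGFβ, 179 and 179 CPM with TGFβ, 102 and 109 CPM in the libraries labelled siKLF10, and 110.2 and 107 CPM with siCont. Without TGFβ the A549 groups overlapped and no difference was found (log2 −0.05 ± 0.0802, adjusted p = 0.743), so these A549 groups are called the libraries labelled siKLF10. With TGFβ the 2 libraries labelled siKLF10+TGFβ lay below TGFβ. Panc1 libraries held 11152625 to 15571367 gene counts and A549 libraries 6846761 to 19070551, so that 3 counts correspond to between 0.157 and 0.438 CPM. The lung and A549 marker list of 8 genes summed to between 12142 and 19494 CPM in A549 and to between 6.25 and 10.8 CPM in Panc1, while its lung epithelium genes SFTPB, SFTPC, NAPSA and NKX2-1 were at most 1.67 CPM in any library. The pancreatic acinar, islet and PDX1 list summed to at most 0.377 CPM in Panc1, so these lung epithelium and pancreatic genes were near 0. No list of pancreatic duct genes was read. Among 5 haematopoietic genes PTPRC, CD3E and HBB were at most 0.650 CPM in any library. Most of the sum came from CD68, a lysosomal gene not confined to macrophages. In A549 siCont the 5 genes summed to 27.1 to 29.7 CPM with CD68 at 23.8 and 24.3 CPM, so ITGAM, the other gene listed, added a part. Basal keratins (KRT5, KRT6A, KRT14 and KRT17) summed to 34.4 to 92.9 CPM in Panc1 siCont and to 10.4 to 19.6 CPM in the other 9 Panc1 libraries. The highest was siCont A, and results that rest on Panc1 siCont are therefore also counted without it.

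In Panc1, siKLF10 without TGFβ went with lower levels of most of the glycolytic pathway. A gene rose or fell here where edgeR's quasi-likelihood test gave an adjusted p under 0.05 over all genes tested. Of the 34 members tested, 20 fell and 4 rose in siKLF10 against siCont, beside 18.3% of all 13218 genes tested that fell and 17.3% that rose. The members' median log2 fold change was −0.39, against 0.000907 over all genes. Of 16 glycolytic enzymes 12 fell and 1 rose, and of 5 transporters and regulators tested 4 fell and 1 rose. Among 10 non-glycolytic targets 2 fell and 2 rose, and 2 of 3 sensors and factors fell. The 4 that rose were SLC2A1, HK2, P4HA1 and ADM. Without siCont A the counts were again 20 fallen and 4 risen, beside 2229 and 1979 of all genes in place of 2414 and 2286. Marker lists moved with these groups: basal keratins, as above, and the haematopoietic list through CD68, at 38.0 to 54.2 CPM in siKLF10+TGFβ, 155 to 171 CPM in TGFβ, 70.5 to 95.8 CPM in siKLF10 and 262 to 283 CPM in siCont. In siKLF10 against siCont 3 of 6 epithelial markers fell (median log2 −0.30) and 2 of 4 tested fibroblast markers rose (median log2 0.57). Their part in the results was not tested. EGLN3, CA9 and SLC2A3 were too low in Panc1 to be tested. In these bulk libraries, fewer cells that express a gene and less RNA per cell cannot be told apart.

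With TGFβ present, siKLF10 still went with lower glycolytic enzymes in Panc1. In siKLF10+TGFβ against TGFβ, 11 of 34 members fell and 7 rose, beside 20.6% and 21.1% of all genes. Of 16 enzymes 9 fell and 1, HK2, rose, while 4 of 10 non-glycolytic targets rose. The members' median was −0.06, against −0.00146 over all genes. These groups share no library with the pair compared without TGFβ. The 6 epithelial markers summed to 704 to 834 CPM in siKLF10+TGFβ and 439 to 464 CPM in TGFβ, where 2 rose and 2 fell. The part of these markers in the results was not tested.

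TGFβ alone raised and lowered members in Panc1 in similar numbers. In TGFβ against siCont, 8 members rose and 10 fell, beside 14% of all genes that rose and 15.1% that fell, with a members' median of −0.06 against −0.00485 over all genes. Of 16 enzymes 7 fell and 1 rose, 3 of 5 transporters and regulators rose, and of 10 non-glycolytic targets 4 rose and 2 fell. The 6 epithelial markers summed to 439 to 464 CPM in TGFβ and 857 to 999.3 CPM in siCont, and their part in these results was not tested. Without siCont A, 8 rose and 11 fell, the added one being SLC16A3 (adjusted p = 0.0022). Of all genes 1585 then rose and 1691 fell, in place of 1844 and 1995. After siKLF10, in siKLF10+TGFβ against siKLF10, 18 members rose and 8 fell, beside 22.6% and 22.3% of all genes, with a median of 0.24 against −0.00944. With upper-quartile scaling, 2373 of all genes rose and 3552 fell in that comparison, in place of 2993 and 2950.

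Whether these responses to TGFβ differ was tested by the interaction, their difference on the log2 scale (after siKLF10 minus without it). It was higher for 10 members and lower for 1, beside 2.56% and 1.86% of all genes in Panc1, and the members' median was 0.25 against −0.00651. The higher ones were EPAS1, HIF1A, ANGPTL4, SLC2A1, PFKFB3, PFKFB4, HK1, HK2, ALDOC and LDHA, and the lower one was ADM. Without siCont A, 8 were higher and 1 lower, with SLC2A1, ALDOC and LDHA lost and PDK1 added. Of all genes 238 were then higher and 166 lower. With upper-quartile scaling 270 of all genes were higher and 298 lower, in place of 338 and 246. The interaction uses the same libraries as the comparisons above, so for a gene low only in siKLF10 these are not separate findings.

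In A549, TGFβ lowered HIF1A and several enzymes and raised ANGPTL4, VEGFA and glucose transporters, and 5 enzymes rose in the libraries labelled siKLF10. In TGFβ against siCont, 10 of 37 members rose and 12 fell, beside 24.2% and 23.5% of all 14124 genes tested, with a median of −0.09 against −0.0106. Of the 16 enzymes 5 fell and 2 rose, and of 6 transporters and regulators 4 rose and 1 fell. Marker lists also moved with TGFβ: basal keratins summed to 24.8 to 27.1 CPM in the libraries labelled siKLF10+TGFβ, 10.5 to 11.2 CPM in TGFβ and under 1 CPM in the other 4 libraries, and 6 fibroblast genes to 11.3 to 12.6, 8.46 to 11.5 and at most 3.63 CPM in the same groups. In TGFβ against siCont 4 of 6 epithelial markers fell and 1 rose (median log2 −1.28), and 3 of 5 tested lung and A549 markers fell (median log2 −2.68). In the libraries labelled siKLF10 against siCont 2 of these 5 fell and 0 rose, and 1 of 6 epithelial markers rose and 1 fell. The lung and A549 list summed to 13627 to 14244 CPM there, against 19394 to 19494 CPM in siCont. Their part in the results was not tested. In the libraries labelled siKLF10 against siCont, 9 members rose and 6 fell, beside 9.57% and 9.96%, with a median of 0.07 against 0.00322. The 5 enzymes that rose there were HK1, HK2, GPI, ALDOA and ALDOC. The calls were lost for HK2 without siCont A or siKLF10 B (adjusted p = 0.208 to 0.215) and with DESeq2 (adjusted p = 0.103), GPI without siCont A or B or siKLF10 A or B (adjusted p = 0.0635 to 0.214), ALDOA without siCont A or B or siKLF10 A (adjusted p = 0.0581 to 0.176) and ALDOC without siCont A or B or siKLF10 A or B (adjusted p = 0.0671 to 0.282) and with DESeq2 (adjusted p = 0.238). With 1 library of this comparison left out, the number of members that passed moved, as did that of all genes, both given further on. The members' median then ran from 0.04 to 0.10, against 0 to 0.0102 over all genes. In the libraries labelled siKLF10+TGFβ against TGFβ, 11 rose and 9 fell, beside 14.4% and 13.9%, with a median of −0.04 against 0.00776. Without TGFβ A the members' median was −0.04 against 0.0141 over all genes, and without TGFβ B −0.03 against 0.00978. The number of members that passed moved when a library was left out, as did that of all genes, both given further on. In the libraries labelled siKLF10+TGFβ against those labelled siKLF10, 12 rose and 14 fell, beside 26.5% and 26.8%, with a median of −0.16 against −0.00756. The A549 interaction was higher for 3 members and lower for 6, beside 3.26% and 3.23%, with a median of −0.11 against −0.00556. With 1 library left out the members' median ran from −0.14 to −0.05, against −0.0214 to 0.00735 over all genes. The number of members that passed then moved, as did that of all genes, both given further on.

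The difference of each effect between the lines, Panc1 minus A549, was tested in a joint model of 15058 genes. For siKLF10 without TGFβ, which on the A549 side uses the libraries labelled siKLF10, it was lower for 18 members and higher for 4, beside 8.65% and 8.59% of all genes, with a members' median of −0.50 against 0.0103. The lower ones included 11 of the 16 enzymes. Without Panc1 siCont A, 16 were lower and 3 higher, beside 1223 and 1223 of all genes in place of 1303 and 1294. For TGFβ the difference was higher for 10 and lower for 8, beside 17.1% and 13.8%, with a median of −0.03 against 0.069, and 2001 of all genes were higher and 2506 lower with upper-quartile scaling in place of 2581 and 2082. For siKLF10 with TGFβ it was higher for 5 and lower for 5, beside 7.52% and 12.3%, with a median of −0.14 against −0.0531. In that comparison 9 members were lower without Panc1 siKLF10+TGFβ A, where 2100 of all genes were lower in place of 1847. Without A549 siKLF10+TGFβ B the members' median was −0.10 against −0.0155.

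**Figure D1:**
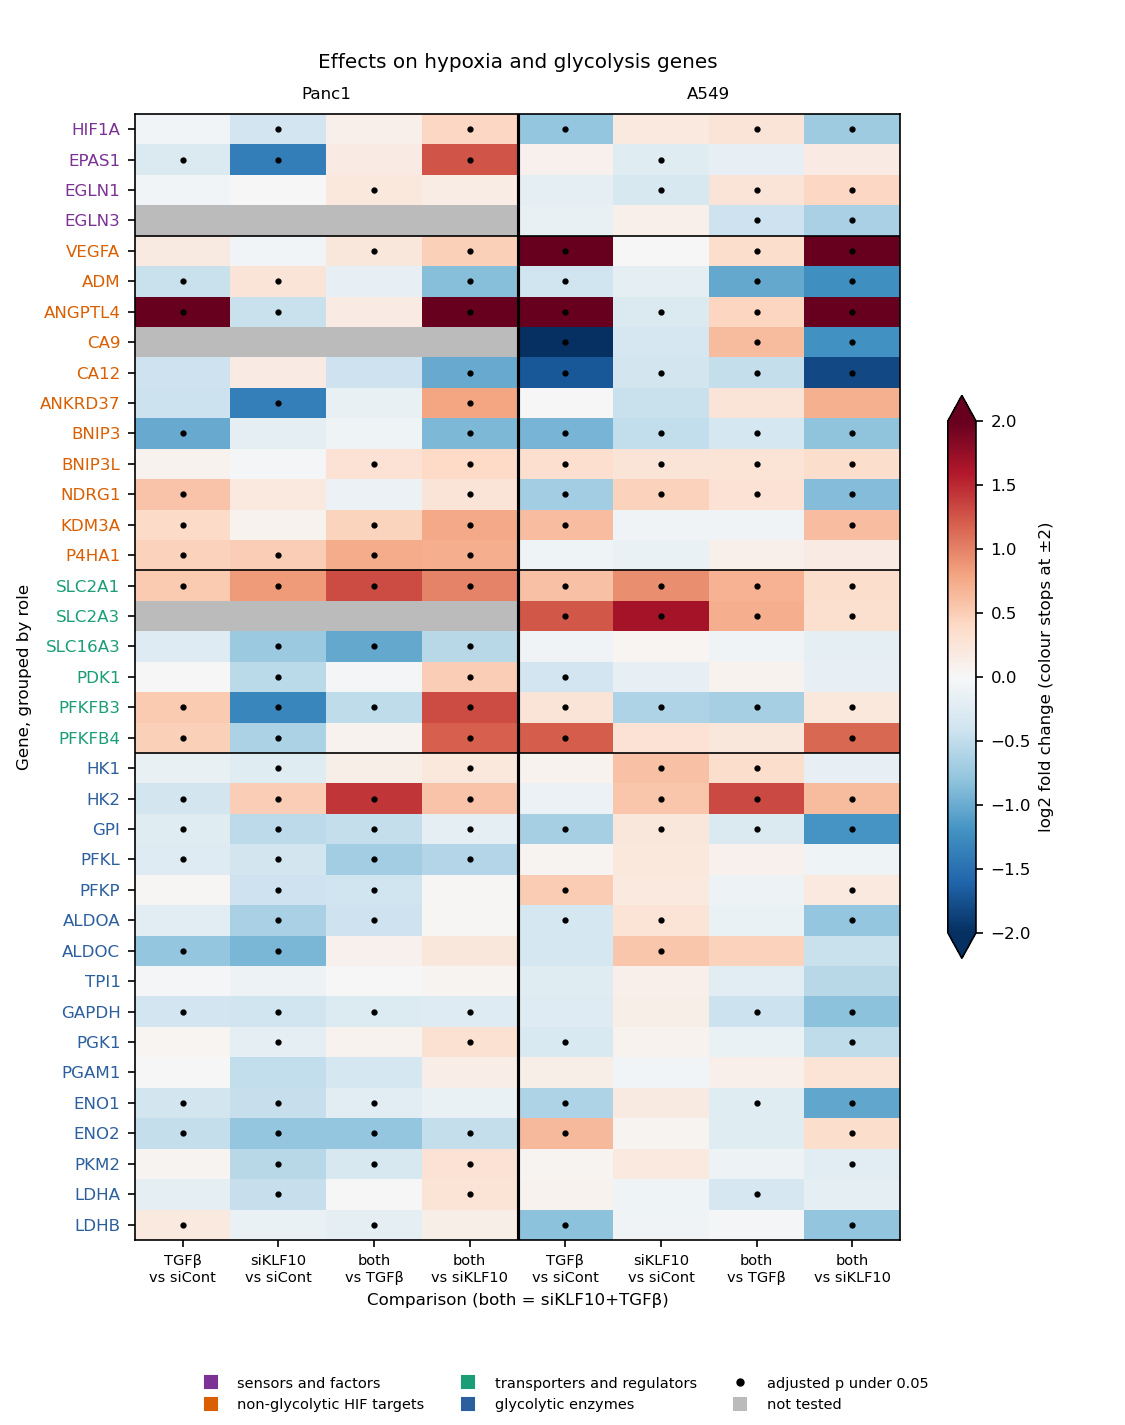
Log2 fold changes of the 37 members (rows, grouped by role) in 4 comparisons in Panc1 (left) and A549 (right), with dots at an adjusted p under 0.05 and grey where a gene was not tested. In Panc1 siKLF10 against siCont the column is mostly blue, with 20 members fallen, while SLC2A1 and HK2 are red, and ANGPTL4 is dark red under TGFβ in both lines.

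Among the sensors and factors, HIF1A encodes the α subunit of HIF1. Panc1 libraries held 555, 549.3 and 575 CPM with siKLF10+TGFβ, 523, 491 and 552 CPM with TGFβ, 409, 413 and 432 CPM with siKLF10, and 575, 533 and 519 CPM with siCont. The 3 siKLF10 libraries were lower than the other 9, which overlapped each other. HIF1A fell in siKLF10 (log2 −0.38 ± 0.0592, adjusted p = 3.67e-05), rose with TGFβ after siKLF10 (log2 0.42 ± 0.0592, adjusted p = 4.39e-06) and differed in the interaction (log2 0.48 ± 0.0835, adjusted p = 0.00139). A549 libraries held 368 and 401 CPM in the libraries labelled siKLF10+TGFβ, 338 and 305 CPM with TGFβ, 631 and 633 CPM in the libraries labelled siKLF10, and 557 and 543 CPM with siCont. Both groups given TGFβ lay below both groups without it, with no overlap. HIF1A fell in A549 TGFβ against siCont (log2 −0.77 ± 0.0769, adjusted p = 2.32e-08) and in the libraries labelled siKLF10+TGFβ against those labelled siKLF10 (log2 −0.71 ± 0.0762, adjusted p = 6.22e-08), and the TGFβ effect differed between lines by log2 0.80 ± 0.102 (adjusted p = 1.34e-07). A rise (log2 0.26 ± 0.0768) in the libraries labelled siKLF10+TGFβ against TGFβ was lost without TGFβ B or siKLF10+TGFβ B (adjusted p = 0.0562 to 0.198) and with only the groups of the comparison (adjusted p = 0.0596).

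EPAS1 encodes HIF2α, the α subunit that endothelial and several carcinoma cells use beside HIF1α. Its Panc1 values were 43.3, 46.6 and 39.6 CPM with siKLF10+TGFβ, 37.9, 37.4 and 39.6 CPM with TGFβ, 17.98, 18.9 and 17.4 CPM with siKLF10, and 47.7, 44.1 and 49.3 CPM with siCont. The siKLF10 libraries were lowest, between 17.4 and 18.9 CPM, with no overlap with the other 9 libraries. EPAS1 fell 2.6-fold in siKLF10 (log2 −1.38 ± 0.0835, adjusted p = 3.02e-11), the deepest fall of a member in this comparison, and rose with TGFβ after siKLF10 (log2 1.25 ± 0.0843, adjusted p = 4.05e-11). In TGFβ against siCont it fell by a small amount (log2 −0.30 ± 0.0769, adjusted p = 0.00502). The interaction was log2 1.55 ± 0.114 (adjusted p = 2.62e-08). With TGFβ present, siKLF10 gave log2 0.17 ± 0.0776 (adjusted p = 0.0814). In A549 its level was 399 and 427 CPM in the libraries labelled siKLF10+TGFβ, 467 and 458 CPM with TGFβ, 372 and 362 CPM in the libraries labelled siKLF10, and 448 and 420.0 CPM with siCont, and the siKLF10 effect differed between lines by log2 −1.11 ± 0.113 (adjusted p = 2.03e-08). The fall (log2 −0.24 ± 0.0737) in the A549 libraries labelled siKLF10 was lost without siCont A or B or siKLF10 A or B (adjusted p = 0.0759 to 0.256).

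EGLN1, the main HIF prolyl hydroxylase, had changes no larger than log2 0.59. Its Panc1 values were 60.8, 68.9 and 69.7 CPM with siKLF10+TGFβ, 56.4, 58.3 and 57.6 CPM with TGFβ, 57.8, 63.99 and 58.01 CPM with siKLF10, and 56.9, 62.3 and 60.5 CPM with siCont. Most of these values overlap, and a rise (log2 0.21 ± 0.0711) in siKLF10+TGFβ against TGFβ was lost without TGFβ A, B or C or siKLF10+TGFβ B or C (adjusted p = 0.0518 to 0.107). Its A549 values were 164 and 157 CPM in the libraries labelled siKLF10+TGFβ, 130.0 and 137 CPM with TGFβ, 119.8 and 121 CPM in the libraries labelled siKLF10, and 154 and 148 CPM with siCont. It was highest in the libraries labelled siKLF10+TGFβ and lowest in those labelled siKLF10, without overlap, and it rose between them (log2 0.41 ± 0.0777, adjusted p = 0.000123), with an interaction (log2 0.59 ± 0.110, adjusted p = 0.00206). The fall (log2 −0.32 ± 0.0779) in the libraries labelled siKLF10 was lost without siCont A or siKLF10 A (adjusted p = 0.0554 to 0.0885).

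EGLN3, a hydroxylase that is itself a HIF target, was near the count floor in Panc1, at 0.132, 0.326 and 0.0867 CPM with siKLF10+TGFβ, 0.145, 0.240 and 0.204 CPM with TGFβ, 0.599, 0.226 and 0.454 CPM with siKLF10, and 1.84, 0.709 and 0.998 CPM with siCont. It was well measured in A549, at 62.9 and 61.3 CPM in the libraries labelled siKLF10+TGFβ, 85.1 and 80.6 CPM with TGFβ, 91.5 and 105 CPM in the libraries labelled siKLF10, and 93.8 and 88.96 CPM with siCont, where the libraries labelled siKLF10+TGFβ were the lowest. EGLN3 fell there against TGFβ (log2 −0.42 ± 0.0904, adjusted p = 0.00143) and against the libraries labelled siKLF10 (log2 −0.66 ± 0.0892, adjusted p = 2.21e-06). The A549 interaction (log2 −0.51 ± 0.126) was lost without siCont B, TGFβ A or B or siKLF10 B (adjusted p = 0.0541 to 0.115). The highest Panc1 libraries were those of siCont. A line difference for its TGFβ effect (log2 −2.32 ± 0.465) rests on these levels near the floor.

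EPAS1 and PFKFB3, the regulator of phosphofructokinase described further on, had 2 of the 3 deepest falls in Panc1 siKLF10 and the interaction was higher for both, so their promoter windows are shown. Windows are from RefSeq (GRCh38.p14), from 250 bases before an annotated start to 50 after it. They were matched by symbol, or by synonym for PKM2 (listed as PKM). Only the first window listed for a symbol was used, so other starts of a gene were not searched. Capitals mark GGGCGG on either strand, the GC box that SP and KLF factors are known to bind. The EPAS1 window is chr2:46297157-46297456, plus strand, with 7 matches, and the PFKFB3 window is chr10:6144671-6144970, plus strand, with 6.
EPAS1: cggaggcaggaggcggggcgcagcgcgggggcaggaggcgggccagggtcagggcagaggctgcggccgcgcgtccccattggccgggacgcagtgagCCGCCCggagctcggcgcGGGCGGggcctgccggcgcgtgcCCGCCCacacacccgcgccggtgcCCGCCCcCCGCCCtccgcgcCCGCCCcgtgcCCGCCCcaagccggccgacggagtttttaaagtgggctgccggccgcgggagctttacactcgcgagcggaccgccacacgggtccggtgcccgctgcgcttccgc
PFKFB3: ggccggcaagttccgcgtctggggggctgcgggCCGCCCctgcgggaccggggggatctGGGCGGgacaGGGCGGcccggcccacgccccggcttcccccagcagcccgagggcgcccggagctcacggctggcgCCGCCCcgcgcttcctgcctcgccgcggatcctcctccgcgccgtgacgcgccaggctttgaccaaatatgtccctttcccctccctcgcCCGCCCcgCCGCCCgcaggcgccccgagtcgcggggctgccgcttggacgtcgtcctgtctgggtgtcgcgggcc
GGGCGG was found in 26 of 33 matched members (78.8%) and in 45% of 35116 windows of the same length. Those windows are not limited to genes expressed or tested here, so the shares come from unlike sets and do not measure enrichment. CACCC, the other core of KLF sites, was found in 27 members (81.8%) and in 59.9% of windows. Both strands were searched and matches of different motifs may overlap. ANKRD37, the other of the 3 deepest falls, had 1 match of GGGCGG. PFKL had 7 and PFKFB4 5, and both fell in Panc1 siKLF10. EGLN1 and BNIP3 had 6 each and TPI1 5, with no fall called there. Whether matches go with falls was not tested. A match is a description of letters and not a binding site. VEGFA, BNIP3L, NDRG1 and SLC2A3 had no window.

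The non-glycolytic HIF targets were led by ANGPTL4, a secreted inhibitor of lipoprotein lipase that both HIF and TGFβ are known to induce. For Panc1 the values were 61.04, 56.1 and 53.5 CPM with siKLF10+TGFβ, 51.4, 52.4 and 49.2 CPM with TGFβ, 8.65, 7.46 and 7.88 CPM with siKLF10, and 9.57, 11.3 and 11.8 CPM with siCont. The 6 libraries given TGFβ lay between 49.2 and 61.0 CPM and the 6 others between 7.46 and 11.8 CPM. ANGPTL4 rose 4.67-fold in TGFβ against siCont (log2 2.22 ± 0.0920, adjusted p = 1.18e-14), and 7.13-fold after siKLF10 (log2 2.83 ± 0.0973, adjusted p = 3.14e-16). It fell in siKLF10 against siCont (log2 −0.45 ± 0.114, adjusted p = 0.00371), and the interaction was log2 0.61 ± 0.138 (adjusted p = 0.0115). A549 read 1544 and 1496 CPM in the libraries labelled siKLF10+TGFβ, 1118 and 1148 CPM with TGFβ, 84.6 and 108 CPM in the libraries labelled siKLF10, and 116 and 119 CPM with siCont. The rise was 9.65-fold with TGFβ (log2 3.27 ± 0.0955, adjusted p = 3.24e-17), the largest of any member in A549 TGFβ against siCont, and the libraries labelled siKLF10+TGFβ were above TGFβ (log2 0.42 ± 0.0861, adjusted p = 0.00084). The A549 interaction was log2 0.72 ± 0.128 (adjusted p = 0.00145), and the TGFβ effect was smaller in Panc1, by the difference between lines (log2 −0.97 ± 0.127, adjusted p = 2.63e-07). A fall (log2 −0.29 ± 0.0941) in the A549 libraries labelled siKLF10 was lost without siCont A or B or siKLF10 A (adjusted p = 0.12 to 0.512).

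VEGFA, the main angiogenic factor of the HIF programme, rose with TGFβ in A549 far more than in Panc1. For A549 the values were 694 and 837 CPM in the libraries labelled siKLF10+TGFβ, 572 and 623 CPM with TGFβ, 61.8 and 73.1 CPM in the libraries labelled siKLF10, and 63.5 and 70.2 CPM with siCont, so that every TGFβ-treated library held several times the level of every other. It rose 8.94-fold with TGFβ (log2 3.16 ± 0.105, adjusted p = 1.08e-14). In Panc1 its level was 68.7, 62.3 and 55.7 CPM with siKLF10+TGFβ, 53.9, 48.97 and 56.6 CPM with TGFβ, 46.9, 42.96 and 45.3 CPM with siKLF10, and 45.8, 49.1 and 45.7 CPM with siCont, and the siKLF10+TGFβ and TGFβ values overlapped. TGFβ against siCont gave log2 0.18 ± 0.0803 there (adjusted p = 0.0912), and TGFβ after siKLF10 a rise (log2 0.47 ± 0.0805, adjusted p = 5.41e-05). The difference between lines was log2 −2.89 ± 0.133 (adjusted p = 3.58e-18). The Panc1 rise with siKLF10 under TGFβ (log2 0.23) was lost without TGFβ A or B or siKLF10+TGFβ A or B (adjusted p = 0.0509 to 0.14), and the A549 one (log2 0.36) without TGFβ A (adjusted p = 0.12).

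CA9 and CA12, membrane carbonic anhydrases that buffer acid outside hypoxic cells, fell with TGFβ in A549. CA12 measured 391 and 362 CPM in the libraries labelled siKLF10+TGFβ, 544 and 502 CPM with TGFβ, 1292 and 1335 CPM in the libraries labelled siKLF10, and 1670.2 and 1725 CPM with siCont there. CA9 measured 9.92 and 13.5 CPM in the libraries labelled siKLF10+TGFβ, 7.84 and 7.57 CPM with TGFβ, 23.1 and 33.3 CPM in the libraries labelled siKLF10, and 33.6 and 36.5 CPM with siCont. For both genes the TGFβ-treated libraries lay below all others. CA12 fell 3.24-fold (log2 −1.70 ± 0.0771, adjusted p = 4.44e-14) and CA9 4.52-fold (log2 −2.18 ± 0.189, adjusted p = 4.14e-08), and CA12 also fell in the libraries labelled siKLF10 (log2 −0.37 ± 0.0747, adjusted p = 0.00125). The CA9 interaction (log2 0.97 ± 0.260) was lost without siCont A or B, TGFβ A or B, siKLF10 A or siKLF10+TGFβ B (adjusted p = 0.0641 to 0.183) and with DESeq2 (adjusted p = 0.0534), and its rise (log2 0.63 ± 0.210) with siKLF10 under TGFβ was lost without TGFβ A or B or siKLF10+TGFβ B (adjusted p = 0.158 to 0.247) and with DESeq2 (adjusted p = 0.0501). Panc1 had a CA9 count in 1 of 12 libraries. CA12 in Panc1 was low, at 3.62, 3.02 and 2.78 CPM with siKLF10+TGFβ, 4.07, 4.55 and 4.15 CPM with TGFβ, 5.31, 6.11 and 7.57 CPM with siKLF10, and 5.08, 5.91 and 5.99 CPM with siCont, and fell with TGFβ after siKLF10 (log2 −1.001 ± 0.173, adjusted p = 5.96e-05). Its TGFβ effect differed between lines by log2 1.36 ± 0.159 (adjusted p = 2.3e-08).

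BNIP3, a receptor for mitophagy and a classical HIF target, fell with TGFβ in both lines. It measured 15.01, 15.7 and 15.7 CPM with siKLF10+TGFβ, 15.7, 14.9 and 18.6 CPM with TGFβ, 32.02, 26.98 and 28.02 CPM with siKLF10, and 32.9, 36.5 and 30.7 CPM with siCont for Panc1. It measured 19.1 and 18.4 CPM in the libraries labelled siKLF10+TGFβ, 25.04 and 22.6 CPM with TGFβ, 30.98 and 34.3 CPM in the libraries labelled siKLF10, and 42.2 and 49.6 CPM with siCont for A549. The TGFβ-treated libraries were the lowest in each line, without overlap. The falls were log2 −1.02 ± 0.0992 in Panc1 (adjusted p = 2.94e-08) and log2 −0.94 ± 0.117 in A549 (adjusted p = 7.58e-07), and the difference between lines in the joint model was log2 0.00257 ± 0.165, which did not pass the test. BNIP3 also fell in the A549 libraries labelled siKLF10 (log2 −0.50 ± 0.111), a call lost without siCont B or siKLF10 A (adjusted p = 0.0764 to 0.0944). Its relative BNIP3L, at 114 to 168 CPM in Panc1 and 158 to 258 CPM in A549, rose with TGFβ in A549 (log2 0.33 ± 0.0796, adjusted p = 0.00158) and with TGFβ after siKLF10 in Panc1 (log2 0.39 ± 0.0668, adjusted p = 4.98e-05).

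ADM, which encodes the vasodilator peptide adrenomedullin, was lowest where siKLF10 and TGFβ were combined. Panc1 values were 56.96, 56.3 and 60.01 CPM with siKLF10+TGFβ, 66.9, 65.7 and 61.7 CPM with TGFβ, 112, 96.3 and 105 CPM with siKLF10, and 86.5, 89.2 and 87.8 CPM with siCont. It fell with TGFβ (log2 −0.44 ± 0.0666, adjusted p = 1.83e-05), rose in siKLF10 (log2 0.25 ± 0.0653, adjusted p = 0.00456), and its interaction was log2 −0.42 ± 0.0945 (adjusted p = 0.0115). A549 values were 33.997 and 35.3 CPM in the libraries labelled siKLF10+TGFβ, 66.96 and 74.8 CPM with TGFβ, 82.4 and 80.6 CPM in the libraries labelled siKLF10, and 93.9 and 92.9 CPM with siCont. The 2 libraries labelled siKLF10+TGFβ were lowest, a fall against TGFβ (log2 −1.02 ± 0.0924, adjusted p = 4.77e-08), and the A549 interaction was log2 −0.83 ± 0.126 (adjusted p = 0.000319). The siKLF10 effect under TGFβ differed between lines by log2 0.82 ± 0.115 (adjusted p = 3.11e-06).

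NDRG1, a stress gene that hypoxia strongly induces, moved in opposite directions with TGFβ. Panc1 libraries held 50.8, 48.02 and 38.6 CPM with siKLF10+TGFβ, 49.1, 50.4 and 49.8 CPM with TGFβ, 40.5, 38.3 and 36.3 CPM with siKLF10, and 36.1, 30.9 and 33.6 CPM with siCont, lowest in siCont, a rise with TGFβ (log2 0.57 ± 0.0894, adjusted p = 2.99e-05). In A549 its levels came to 304 and 291 CPM in the libraries labelled siKLF10+TGFβ, 244 and 245 CPM with TGFβ, 516 and 574 CPM in the libraries labelled siKLF10, and 388 and 403 CPM with siCont, with the TGFβ-treated libraries below the others, a fall with TGFβ (log2 −0.69 ± 0.0762, adjusted p = 1.12e-07). The difference between lines was log2 1.34 ± 0.120 (adjusted p = 6.44e-11). It rose in the A549 libraries labelled siKLF10 (log2 0.46 ± 0.0748, adjusted p = 0.000152).

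P4HA1, a subunit of the collagen prolyl hydroxylase, rose with each treatment in Panc1, at 169, 170.2 and 173 CPM with siKLF10+TGFβ, 108, 99.6 and 97.9 CPM with TGFβ, 102, 107 and 101 CPM with siKLF10, and 75.4, 73.1 and 72.9 CPM with siCont. The combined group was highest and siCont lowest, and TGFβ and siKLF10 overlapped between them. The rises were log2 0.46 ± 0.0598 with TGFβ (adjusted p = 2.07e-06), log2 0.49 ± 0.0600 with siKLF10 (adjusted p = 1.67e-06) and log2 0.75 ± 0.0583 with siKLF10 under TGFβ (adjusted p = 1.71e-09). In A549 its level was 90.4 and 109 CPM in the libraries labelled siKLF10+TGFβ, 93.01 and 92.7 CPM with TGFβ, 85.2 and 94.6 CPM in the libraries labelled siKLF10, and 95.6 and 102 CPM with siCont, in a mixed order, with a range of 85.2 to 109 CPM. No A549 comparison of it passed the edgeR test, and the 3 effects differed between lines: log2 0.63 ± 0.113 for TGFβ, log2 0.65 ± 0.113 for siKLF10 and log2 0.60 ± 0.112 for siKLF10 under TGFβ (adjusted p = 4.61e-05, 0.000106 and 0.000181). KDM3A, a histone demethylase, measured 101, 112 and 124 CPM with siKLF10+TGFβ, 85.7, 80.2 and 79.9 CPM with TGFβ, 61.8, 75.1 and 61.3 CPM with siKLF10, and 61.2, 62.8 and 64.2 CPM with siCont in Panc1. It rose with TGFβ there (log2 0.38 ± 0.0820, adjusted p = 0.000893) and in A549 (log2 0.61 ± 0.0795, adjusted p = 1.27e-06), and in Panc1 siKLF10+TGFβ, which lay above TGFβ without overlap (log2 0.45 ± 0.0801, adjusted p = 0.000107). ANKRD37, an ankyrin-repeat gene used as a hypoxia marker, was low, at 2.90, 2.04 and 1.91 CPM with siKLF10+TGFβ, 2.83, 2.40 and 2.45 CPM with TGFβ, 1.37, 0.980 and 1.67 CPM with siKLF10, and 4.71, 3.31 and 2.39 CPM with siCont in Panc1. It fell in siKLF10 (log2 −1.36 ± 0.279, adjusted p = 0.000598), with the siKLF10 libraries below the rest, and its rise with TGFβ after siKLF10 (log2 0.79) was lost without siKLF10 A or B or siKLF10+TGFβ A (adjusted p = 0.0635 to 0.179), with DESeq2 (adjusted p = 0.0656) and with upper-quartile scaling (adjusted p = 0.0505).

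**Figure D2:**
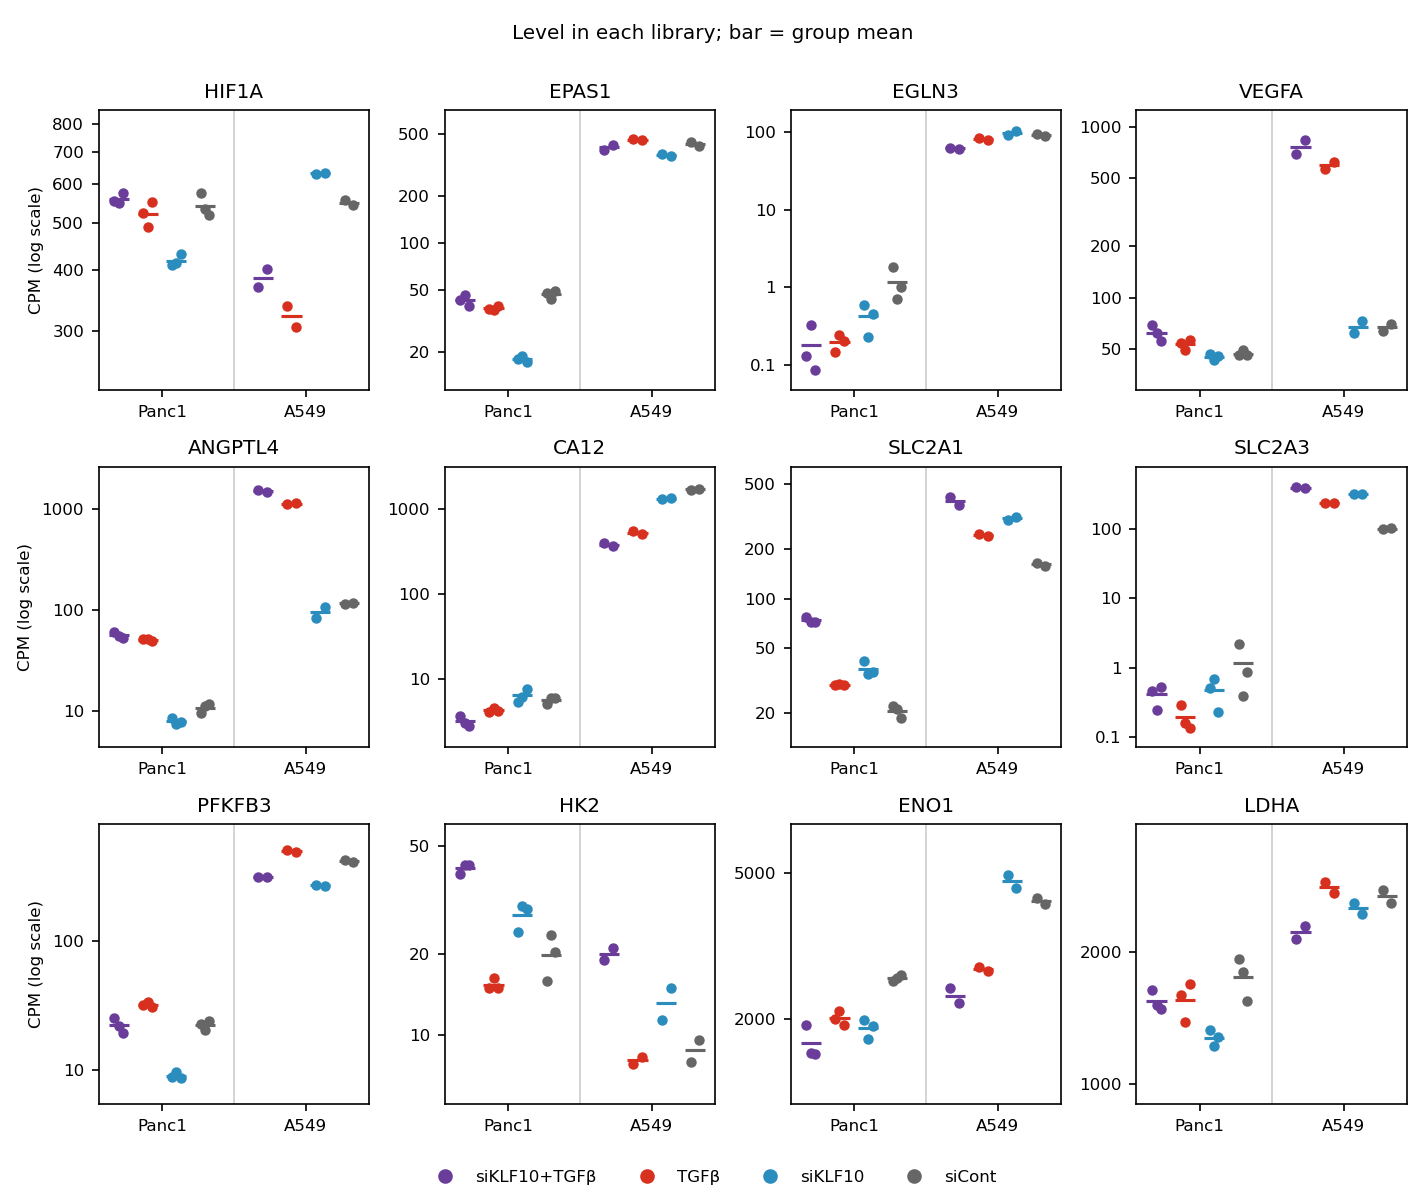
CPM on a log scale (vertical axis) in each library of Panc1 and A549 for 12 members, with 1 point per library, a bar at the group mean and the groups ordered siKLF10+TGFβ, TGFβ, siKLF10 and siCont. EPAS1 and PFKFB3 are lowest in Panc1 siKLF10, SLC2A1 and HK2 are highest in siKLF10+TGFβ in both lines, and VEGFA is high only in the A549 TGFβ-treated libraries among those plotted.

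SLC2A1, which encodes the basal glucose transporter GLUT1, rose in Panc1 siKLF10 and in the A549 libraries labelled siKLF10, with and without TGFβ. Its Panc1 values were 77.4, 71.4 and 72.4 CPM with siKLF10+TGFβ, 29.6, 30.2 and 29.6 CPM with TGFβ, 41.3, 34.4 and 35.8 CPM with siKLF10, and 22.005, 21.3 and 18.7 CPM with siCont. The order was siKLF10+TGFβ, then siKLF10, then TGFβ, then siCont, with no overlap between any of the 4 groups. SLC2A1 rose 1.8-fold in siKLF10 (log2 0.85 ± 0.0868, adjusted p = 1.13e-07), 2.48-fold in siKLF10+TGFβ against TGFβ (log2 1.31 ± 0.0804, adjusted p = 3.96e-11) and 1.45-fold in TGFβ against siCont (log2 0.53 ± 0.0878, adjusted p = 5.45e-05). A549 libraries held 419.7 and 371 CPM in the libraries labelled siKLF10+TGFβ, 247 and 241 CPM with TGFβ, 303 and 316 CPM in the libraries labelled siKLF10, and 165 and 159 CPM with siCont. The same order held, again with no overlap, with rises of log2 0.93 ± 0.0783 in the libraries labelled siKLF10 (adjusted p = 2.98e-08), log2 0.70 ± 0.0775 in those labelled siKLF10+TGFβ against TGFβ (adjusted p = 7.94e-07) and log2 0.59 ± 0.0786 with TGFβ (adjusted p = 2.07e-06). Between lines the TGFβ effect differed by log2 0.03 ± 0.116 (adjusted p = 0.922), the siKLF10 effect by log2 −0.06 ± 0.116 (adjusted p = 0.812) and the siKLF10 effect under TGFβ by log2 0.58 ± 0.110 (adjusted p = 0.00026). The Panc1 interaction (log2 0.46 ± 0.118) was lost without siCont A or B, TGFβ A, B or C or siKLF10 B or C (adjusted p = 0.0561 to 0.0901).

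SLC2A3 encodes GLUT3, a high-affinity transporter, and its reads could be shared with the near-identical SLC2A14. Its A549 values were 407 and 388 CPM in the libraries labelled siKLF10+TGFβ, 240.1 and 239 CPM with TGFβ, 317 and 320.3 CPM in the libraries labelled siKLF10, and 98.8 and 103 CPM with siCont. All 4 groups were apart, with siCont lowest. It rose 3.16-fold in the libraries labelled siKLF10 (log2 1.66 ± 0.0752, adjusted p = 8.79e-12), 2.37-fold with TGFβ (log2 1.25 ± 0.0753, adjusted p = 5.78e-12) and in the libraries labelled siKLF10+TGFβ against TGFβ (log2 0.73 ± 0.0725, adjusted p = 1.75e-07), and the interaction was log2 −0.93 ± 0.104 (adjusted p = 8.32e-06). In Panc1 it was near the floor, at 0.461, 0.245 and 0.520 CPM with siKLF10+TGFβ, 0.291, 0.160 and 0.136 CPM with TGFβ, 0.514, 0.678 and 0.227 CPM with siKLF10, and 2.21, 0.394 and 0.865 CPM with siCont, so line differences of log2 −3.68 for TGFβ and log2 −2.91 for siKLF10 rest on a few counts.

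SLC16A3, the lactate exporter MCT4, fell with siKLF10 in Panc1. It measured 27.9, 23.6 and 23.1 CPM with siKLF10+TGFβ, 54.7, 51.6 and 46.6 CPM with TGFβ, 39.6, 38.8 and 31.96 CPM with siKLF10, and 45.9, 64.8 and 72.7 CPM with siCont. Every siKLF10 and siKLF10+TGFβ library lay below every siCont and TGFβ library. The fall was 1.67-fold in siKLF10 against siCont (log2 −0.74 ± 0.146, adjusted p = 0.00149), and under TGFβ it was 2.04-fold (log2 −1.03 ± 0.152, adjusted p = 0.000121). In A549 SLC16A3 measured 23.98 and 29.8 CPM in the libraries labelled siKLF10+TGFβ, 27.3 and 30.3 CPM with TGFβ, 29.7 and 33.2 CPM in the libraries labelled siKLF10, and 30.7 and 29.8 CPM with siCont, where siKLF10+TGFβ lay just below siCont and the other pairs of neighbouring groups overlapped. The siKLF10 effect differed between lines with TGFβ (log2 −0.99 ± 0.233), a call lost without A549 siKLF10+TGFβ B (adjusted p = 0.0632), and without it (log2 −0.76 ± 0.226), a call lost without A549 siCont A or B or A549 siKLF10 A or B (adjusted p = 0.0669 to 0.0942). A further fall with TGFβ after siKLF10 (log2 −0.56) was lost without siKLF10 B or siKLF10+TGFβ C (adjusted p = 0.0523 to 0.0534).

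PFKFB3 and PFKFB4 make the bisphosphate that activates phosphofructokinase. PFKFB3 is the main such enzyme of many tumour cells, and 1 promoter window of it is printed above with that of EPAS1. PFKFB3 measured 25.3, 22.1 and 19.4 CPM with siKLF10+TGFβ, 31.9, 33.3 and 30.8 CPM with TGFβ, 8.82, 9.57 and 8.63 CPM with siKLF10, and 22.5, 20.3 and 24.1 CPM with siCont in Panc1. The siKLF10 libraries were far below the rest, and TGFβ was highest. It fell 2.48-fold in siKLF10 (log2 −1.31 ± 0.112, adjusted p = 7.61e-09) and 1.43-fold in siKLF10+TGFβ against TGFβ (log2 −0.51 ± 0.0959, adjusted p = 0.000183), and rose 1.43-fold in TGFβ against siCont (log2 0.52 ± 0.0953, adjusted p = 0.000195) and 2.48-fold in siKLF10+TGFβ against siKLF10 (log2 1.31 ± 0.112, adjusted p = 2.21e-09). The interaction was log2 0.79 ± 0.148 (adjusted p = 0.00244). A549 read 311 and 312 CPM in the libraries labelled siKLF10+TGFβ, 502 and 485 CPM with TGFβ, 272 and 266 CPM in the libraries labelled siKLF10, and 422 and 404 CPM with siCont, again lower in the libraries labelled siKLF10 (log2 −0.62 ± 0.0719, adjusted p = 2.62e-06) and siKLF10+TGFβ (log2 −0.66 ± 0.0715, adjusted p = 5.33e-07) than in their controls. The siKLF10 effect was deeper in Panc1, by the difference between lines (log2 −0.66 ± 0.130, adjusted p = 0.000451). The A549 rise with TGFβ (log2 0.26) was lost without siCont B or TGFβ A (adjusted p = 0.0598 to 0.0741).

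PFKFB4 measured 24.03, 21.4 and 23.7 CPM with siKLF10+TGFβ, 20.7, 21.2 and 24.1 CPM with TGFβ, 11.5, 9.04 and 9.92 CPM with siKLF10, and 16.7, 15.7 and 14.96 CPM with siCont in Panc1. The siKLF10 libraries were again the lowest, a fall (log2 −0.64 ± 0.111, adjusted p = 0.000113), siKLF10+TGFβ against TGFβ gave log2 0.07 ± 0.0967 (adjusted p = 0.601), and the interaction was log2 0.71 ± 0.148 (adjusted p = 0.00635). For A549 the values were 25.5 and 20.1 CPM in the libraries labelled siKLF10+TGFβ, 18.7 and 19.9 CPM with TGFβ, 9.55 and 11.02 CPM in the libraries labelled siKLF10, and 7.83 and 8.92 CPM with siCont, with both TGFβ groups above both others, a rise (log2 1.20 ± 0.159, adjusted p = 1.65e-06). The siKLF10 effect differed between lines by log2 −0.90 ± 0.202 (adjusted p = 0.00181). PDK1, the kinase that shuts pyruvate out of the mitochondrial oxidation step, measured 21.2, 21.5 and 20.1 CPM with siKLF10+TGFβ, 22.9, 20.1 and 21.4 CPM with TGFβ, 12.4, 16.5 and 15.4 CPM with siKLF10, and 19.6, 21.9 and 23.1 CPM with siCont in Panc1. It fell in siKLF10 (log2 −0.54 ± 0.105, adjusted p = 0.00038) and rose with TGFβ after it (log2 0.50 ± 0.106, adjusted p = 0.000594). In A549 its levels came to 28.5 and 26.7 CPM in the libraries labelled siKLF10+TGFβ, 28.6 and 23.6 CPM with TGFβ, 29.9 and 31.8 CPM in the libraries labelled siKLF10, and 33.6 and 35.3 CPM with siCont, and its fall with TGFβ (log2 −0.39) was lost without siCont B or TGFβ B (adjusted p = 0.0669 to 0.128).

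**Figure D3:**
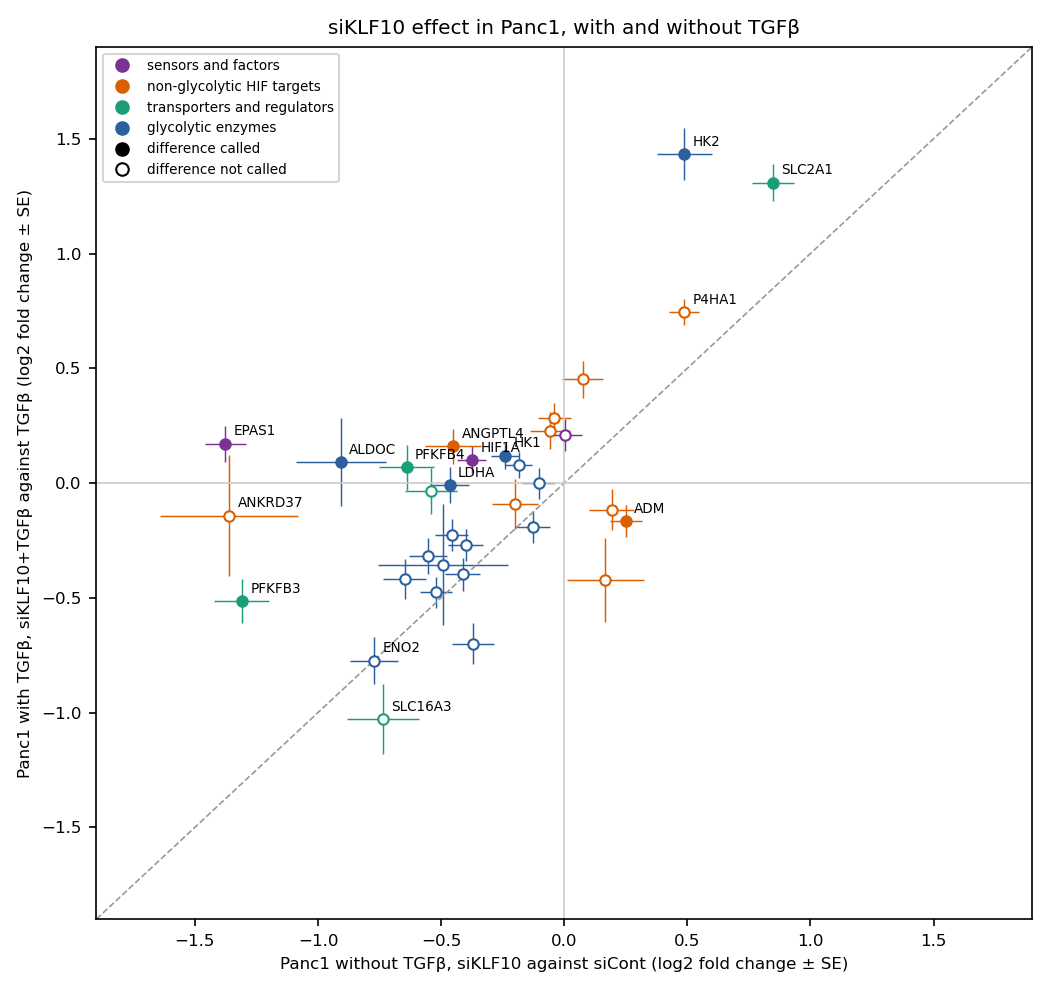
Log2 fold change ± SE of each tested member in Panc1 for siKLF10 against siCont (horizontal) and for siKLF10+TGFβ against TGFβ (vertical), with filled points where the difference of the effects, the interaction, passed the test. Most enzymes lie below 0 on both axes, HK2, SLC2A1 and P4HA1 lie above 0 on both, and EPAS1 at −1.38 and 0.17 lies farthest above the diagonal.

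The glycolytic enzymes as a group were highest in siCont in Panc1. Their summed level was 7997 to 9305 CPM in siKLF10+TGFβ, 9718 to 9840 CPM in TGFβ, 7554 to 8423 CPM in siKLF10 and 10759 to 11245 CPM in siCont. All 37 members together made 1.05% of gene counts in Panc1 siKLF10+TGFβ A, against 0.935% and 0.933% in B and C. In A549 the enzyme sum was 16147 to 17700 CPM in the libraries labelled siKLF10+TGFβ, 19495 to 19880 CPM in TGFβ, 24766 to 26349 CPM in those labelled siKLF10 and 23127 to 23896 CPM in siCont. The libraries labelled siKLF10 were thus highest there, whereas Panc1 siKLF10 and siKLF10+TGFβ were lowest. GAPDH, PGAM1, LDHA, LDHB, TPI1, ENO1 and PGK1 have processed pseudogene copies that could share their reads, so their counts are uncertain.

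HK2, the inducible hexokinase that starts glycolysis, was the 1 enzyme that rose in Panc1 siKLF10, with and without TGFβ. For Panc1 the values were 39.3, 42.6 and 42.7 CPM with siKLF10+TGFβ, 14.9, 16.3 and 14.9 CPM with TGFβ, 24.1, 29.9 and 29.2 CPM with siKLF10, and 15.9, 23.4 and 20.3 CPM with siCont. The siKLF10+TGFβ libraries were highest and siKLF10 next, both above every TGFβ and siCont library. HK2 rose 2.7-fold in siKLF10+TGFβ against TGFβ (log2 1.43 ± 0.112, adjusted p = 1.72e-09) and 1.4-fold in siKLF10 against siCont (log2 0.49 ± 0.112, adjusted p = 0.00175), with an interaction (log2 0.95 ± 0.159, adjusted p = 0.000951). In A549 its level was 18.9 and 21.01 CPM in the libraries labelled siKLF10+TGFβ, 7.84 and 8.31 CPM with TGFβ, 11.4 and 14.9 CPM in the libraries labelled siKLF10, and 7.98 and 9.62 CPM with siCont. The libraries labelled siKLF10+TGFβ were again highest, a rise of 2.5-fold against TGFβ (log2 1.32 ± 0.164, adjusted p = 3.32e-06). The difference of this effect between lines was log2 0.07 ± 0.216 (adjusted p = 0.874). The rise in the A549 libraries labelled siKLF10 (log2 0.56) was lost without siCont A or siKLF10 B (adjusted p = 0.208 to 0.215) and with DESeq2 (adjusted p = 0.103). The Panc1 fall with TGFβ (log2 −0.37) was lost without siCont B or C or TGFβ A or C (adjusted p = 0.0679 to 0.177). HK1, the constitutive hexokinase, ran between 187 and 235 CPM in Panc1, where it fell in siKLF10 (log2 −0.24 ± 0.0567, adjusted p = 0.00221) and rose with TGFβ after siKLF10 (log2 0.22 ± 0.0568, adjusted p = 0.0034), with an interaction (log2 0.36 ± 0.0801, adjusted p = 0.0104). It measured 80.6 and 89.3 CPM in the libraries labelled siKLF10+TGFβ, 65.4 and 68.3 CPM with TGFβ, 101 and 88.8 CPM in the libraries labelled siKLF10, and 65.5 and 61.2 CPM with siCont in A549. It rose in the A549 libraries labelled siKLF10 (log2 0.59 ± 0.0919, adjusted p = 9.49e-05), with a line difference (log2 −0.80 ± 0.109, adjusted p = 2.74e-06).

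HK2, ALDOC, LDHA and ANGPTL4 are among 14 of 33 matched members (42.4%) with ACGTG, the core of the hypoxia response element, in the promoter window, compared with 21.4% of all windows. The variant GCGTG was found in 17 members (51.5%) and in 36.5% of windows. As above, these windows are not limited to genes tested here, so the shares do not measure enrichment. The 4 windows are shown because HK2 had the largest rise of a member in siKLF10+TGFβ against TGFβ in both lines, ALDOC the deepest fall of an enzyme in Panc1 siKLF10, LDHA the most matches and ANGPTL4 the largest rise with TGFβ. Capitals mark ACGTG on either strand, and the palindrome CACGTG counts on both. The windows are chr2:74833877-74834176, plus strand for HK2, chr17:28576846-28577145, minus strand for ALDOC, chr11:18394313-18394612, plus strand for LDHA and chr19:8363905-8364204, plus strand for ANGPTL4, all in GRCh38.p14.
HK2: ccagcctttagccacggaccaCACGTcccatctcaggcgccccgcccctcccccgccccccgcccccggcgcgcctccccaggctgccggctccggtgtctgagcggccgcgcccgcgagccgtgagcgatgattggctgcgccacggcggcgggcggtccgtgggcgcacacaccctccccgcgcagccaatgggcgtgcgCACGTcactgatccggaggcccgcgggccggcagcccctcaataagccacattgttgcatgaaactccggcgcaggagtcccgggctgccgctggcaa
ALDOC: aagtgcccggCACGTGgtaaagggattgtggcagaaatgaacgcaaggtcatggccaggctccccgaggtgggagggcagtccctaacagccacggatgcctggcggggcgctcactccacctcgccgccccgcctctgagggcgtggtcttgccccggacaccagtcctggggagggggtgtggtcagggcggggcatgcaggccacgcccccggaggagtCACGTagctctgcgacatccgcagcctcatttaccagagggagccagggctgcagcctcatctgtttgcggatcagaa
LDHA: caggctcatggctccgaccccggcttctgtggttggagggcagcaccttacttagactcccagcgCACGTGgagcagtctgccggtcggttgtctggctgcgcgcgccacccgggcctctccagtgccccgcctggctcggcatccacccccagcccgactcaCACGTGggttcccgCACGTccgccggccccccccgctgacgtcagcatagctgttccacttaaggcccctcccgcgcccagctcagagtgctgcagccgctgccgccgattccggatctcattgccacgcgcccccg
ANGPTL4: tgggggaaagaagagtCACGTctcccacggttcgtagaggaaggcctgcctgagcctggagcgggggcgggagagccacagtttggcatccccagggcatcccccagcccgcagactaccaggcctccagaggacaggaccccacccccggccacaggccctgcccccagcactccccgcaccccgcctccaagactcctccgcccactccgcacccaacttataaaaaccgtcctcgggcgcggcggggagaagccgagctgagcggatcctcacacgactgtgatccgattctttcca
LDHA had 5 matches, ALDOC 3, HK2 2 and ANGPTL4 1. The EPAS1 and PFKFB3 windows printed above held 0, which says only that these letters are not in those windows.

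ALDOC, the brain-type aldolase, measured 6.26, 6.12 and 5.12 CPM with siKLF10+TGFβ, 6.98, 5.43 and 4.15 CPM with TGFβ, 4.71, 4.45 and 5.83 CPM with siKLF10, and 11.6, 8.82 and 7.78 CPM with siCont in Panc1. It fell in siKLF10 (log2 −0.91 ± 0.183, adjusted p = 0.000507) and in TGFβ (log2 −0.77 ± 0.178, adjusted p = 0.00186), where siCont was above both. Its interaction (log2 0.998 ± 0.265) was lost without siCont A, TGFβ B or C, siKLF10 A or B or siKLF10+TGFβ B (adjusted p = 0.0596 to 0.0968). A549 libraries held 6.88 and 6.55 CPM in the libraries labelled siKLF10+TGFβ, 5.43 and 4.01 CPM with TGFβ, 8.24 and 10.2 CPM in the libraries labelled siKLF10, and 5.66 and 6.74 CPM with siCont, and its rise in the libraries labelled siKLF10 (log2 0.56) was lost without siCont A or B or siKLF10 A or B (adjusted p = 0.0671 to 0.282) and with DESeq2 (adjusted p = 0.238). The difference between lines was log2 −1.44 ± 0.280 (adjusted p = 0.000423). ALDOA, the main aldolase, fell in Panc1 siKLF10 (log2 −0.65 ± 0.0877, adjusted p = 1.34e-05) and in siKLF10+TGFβ against TGFβ (log2 −0.42 ± 0.0876, adjusted p = 0.000814). In A549 it fell with TGFβ (log2 −0.36 ± 0.0744, adjusted p = 0.000425), and the siKLF10 effect differed between lines by log2 −0.90 ± 0.123 (adjusted p = 3.48e-06).

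ENO1 and ENO2 encode enolases, the second being the neuronal form. ENO1 measured 1919, 1609 and 1604 CPM with siKLF10+TGFβ, 1992, 2099 and 1918 CPM with TGFβ, 1979, 1758 and 1904 CPM with siKLF10, and 2536, 2578 and 2633 CPM with siCont in Panc1. All siCont libraries lay above all others. It fell in siKLF10 (log2 −0.46 ± 0.0685, adjusted p = 2.01e-05) and TGFβ (log2 −0.37 ± 0.0685, adjusted p = 0.000223). Its A549 values were 2421 and 2200.1 CPM in the libraries labelled siKLF10+TGFβ, 2764 and 2694 CPM with TGFβ, 4941 and 4555 CPM in the libraries labelled siKLF10, and 4279 and 4099.7 CPM with siCont, with the TGFβ-treated groups lowest, and it fell 1.53-fold with TGFβ (log2 −0.62 ± 0.0782, adjusted p = 9.25e-07). The siKLF10 effect on ENO1 differed between lines by log2 −0.61 ± 0.107 (adjusted p = 0.000114).

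ENO2 measured 16.2, 19.9 and 15.003 CPM with siKLF10+TGFβ, 28.05, 29.5 and 29.8 CPM with TGFβ, 21.8, 23.2 and 25.7 CPM with siKLF10, and 35.99, 41.9 and 43.2 CPM with siCont in Panc1, with no overlap between the 4 groups. It fell 1.71-fold with siKLF10 (log2 −0.77 ± 0.0982, adjusted p = 2.52e-06) and 1.71-fold with siKLF10 under TGFβ (log2 −0.77 ± 0.104, adjusted p = 4.06e-06), and also with TGFβ (log2 −0.47 ± 0.0956, adjusted p = 0.000532). In A549 it rose with TGFβ (log2 0.65 ± 0.0981, adjusted p = 9.76e-06), at 101 and 93.3 CPM in the libraries labelled siKLF10+TGFβ, 112 and 118 CPM with TGFβ, 67.5 and 85.1 CPM in the libraries labelled siKLF10, and 71.2 and 74.7 CPM with siCont. The TGFβ effect differed between lines by log2 −1.04 ± 0.140 (adjusted p = 3.79e-07) and the siKLF10 effect by log2 −0.80 ± 0.144 (adjusted p = 0.000152).

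LDHA and LDHB encode the lactate dehydrogenase subunits. LDHA measured 1637, 1515 and 1482 CPM with siKLF10+TGFβ, 1593, 1383 and 1689 CPM with TGFβ, 1325, 1218 and 1281 CPM with siKLF10, and 1930.5, 1803 and 1545 CPM with siCont in Panc1. The siKLF10 libraries were lowest, below every other library, a fall (log2 −0.46 ± 0.0786, adjusted p = 9.66e-05), and TGFβ after siKLF10 gave a rise (log2 0.28 ± 0.0786, adjusted p = 0.00662). The LDHA interaction (log2 0.46) was lost without siCont A or B, TGFβ B or siKLF10 C (adjusted p = 0.053 to 0.0738). In A549 LDHA measured 2149 and 2293 CPM in the libraries labelled siKLF10+TGFβ, 2898 and 2736 CPM with TGFβ, 2599 and 2444 CPM in the libraries labelled siKLF10, and 2785 and 2590.2 CPM with siCont, lowest in the libraries labelled siKLF10+TGFβ, a fall against TGFβ (log2 −0.34) lost without TGFβ A (adjusted p = 0.0563). LDHB measured 1282 and 1355 CPM in the libraries labelled siKLF10+TGFβ, 1347 and 1356 CPM with TGFβ, 2389.8 and 2150.0 CPM in the libraries labelled siKLF10, and 2448 and 2343 CPM with siCont in A549, a 1.77-fold fall with TGFβ (log2 −0.83 ± 0.0767, adjusted p = 7.91e-09), with no overlap between treated and untreated libraries. In Panc1 LDHB measured 470.3, 426 and 421 CPM with siKLF10+TGFβ, 478, 493 and 536 CPM with TGFβ, 432, 384 and 393 CPM with siKLF10, and 473, 449.9 and 398 CPM with siCont, highest in TGFβ, and the TGFβ effect differed between lines by log2 1.10 ± 0.112 (adjusted p = 1.31e-09).

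GAPDH, often used as a reference gene, was not constant. It measured 1013, 866 and 889 CPM with siKLF10+TGFβ, 1126, 1192 and 1022 CPM with TGFβ, 1125, 1063 and 1104 CPM with siKLF10, and 1423, 1374 and 1549.9 CPM with siCont in Panc1, with siCont above all others, and fell with siKLF10 (log2 −0.40 ± 0.0692, adjusted p = 0.000104) and TGFβ (log2 −0.38 ± 0.0691, adjusted p = 0.000167). A549 read 3421 and 2469 CPM in the libraries labelled siKLF10+TGFβ, 3991 and 3959 CPM with TGFβ, 5292 and 5086 CPM in the libraries labelled siKLF10, and 4741 and 4809 CPM with siCont, and fell with TGFβ in the libraries labelled siKLF10 (log2 −0.82 ± 0.115, adjusted p = 4.15e-05). PGK1, which makes the first ATP of the pathway, measured 411, 404 and 397 CPM with siKLF10+TGFβ, 395, 388 and 366 CPM with TGFβ, 323, 342 and 318 CPM with siKLF10, and 385, 372 and 361 CPM with siCont in Panc1. The siKLF10 libraries were lowest, though the fall (log2 −0.19) was lost without siKLF10 C (adjusted p = 0.077), and PGK1 rose with TGFβ after siKLF10 (log2 0.30 ± 0.0555, adjusted p = 0.000116). For A549 the values were 878 and 827 CPM in the libraries labelled siKLF10+TGFβ, 957 and 908 CPM with TGFβ, 1239 and 1190.3 CPM in the libraries labelled siKLF10, and 1167 and 1148 CPM with siCont, lower in both TGFβ-treated groups, with a fall (log2 −0.31 ± 0.0730, adjusted p = 0.00128).

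In Panc1 siKLF10 GPI, which follows hexokinase, fell (log2 −0.52 ± 0.0662, adjusted p = 2.48e-06), as did the phosphofructokinases PFKL (log2 −0.37 ± 0.0863, adjusted p = 0.00191) and PFKP (log2 −0.41 ± 0.0702, adjusted p = 9.06e-05) and the pyruvate kinase gene listed as PKM2 (now PKM) (log2 −0.55 ± 0.0779, adjusted p = 1.04e-05). Under TGFβ the falls of GPI, PFKL, PFKP and PKM2 were log2 −0.48 ± 0.0665, log2 −0.70 ± 0.0910, log2 −0.40 ± 0.0702 and log2 −0.32 ± 0.0777. PFKL measured 21.99, 19.7 and 19.8 CPM with siKLF10+TGFβ, 35.5, 34.2 and 30.6 CPM with TGFβ, 32.9, 30.7 and 28.9 CPM with siKLF10, and 36.2, 40.9 and 42.3 CPM with siCont in Panc1, with siKLF10+TGFβ lowest. In A549 its levels came to 103 and 105 CPM in the libraries labelled siKLF10+TGFβ, 94.5 and 102 CPM with TGFβ, 113 and 107 CPM in the libraries labelled siKLF10, and 94.6 and 94.998 CPM with siCont, a narrower spread, and the siKLF10 effect under TGFβ differed between lines by log2 −0.82 ± 0.125 (adjusted p = 1.07e-05). GPI fell with TGFβ in A549 (log2 −0.66 ± 0.0727, adjusted p = 1.25e-07), at 515 and 509 CPM in the libraries labelled siKLF10+TGFβ, 631 and 623 CPM with TGFβ, 1112 and 1202 CPM in the libraries labelled siKLF10, and 1000.1 and 978 CPM with siCont, with the TGFβ-treated groups lowest, and PFKP rose there (log2 0.50 ± 0.0730, adjusted p = 6.59e-06). TPI1, the triose isomerase, and PGAM1, the mutase, each passed 0 of 13 edgeR tests. Each had an unadjusted p under 0.05 in 1 of them, and DESeq2 called TPI1 in 1 and PGAM1 in 0. Their adjusted p-values ran from 0.0647 to 0.996.

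**Figure D4:**
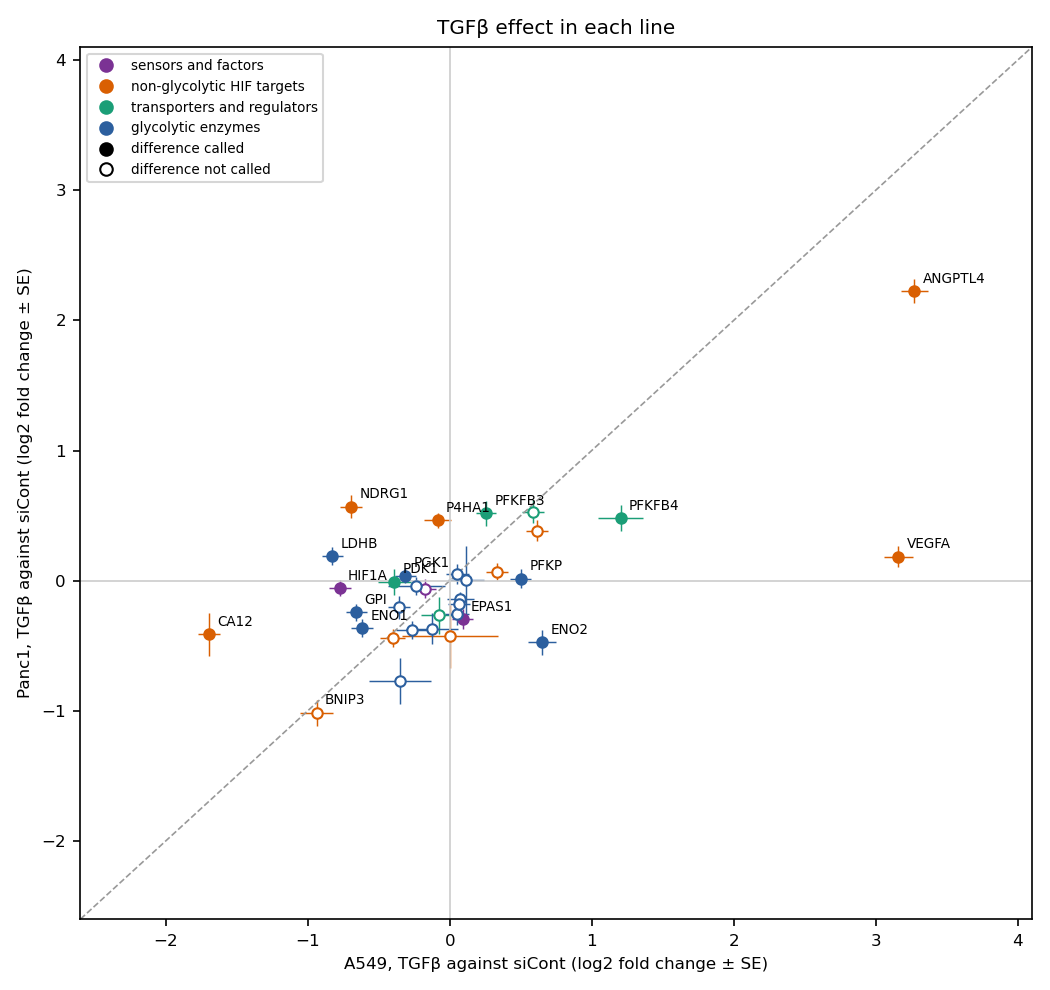
Log2 fold change ± SE for TGFβ against siCont in A549 (horizontal) and Panc1 (vertical) for members tested in both lines, with filled points where the difference between lines passed the test. ANGPTL4 rises in both, at 3.27 in A549 and 2.22 in Panc1, VEGFA rises in A549 only by the test, and NDRG1, LDHB and CA12 lie above the diagonal.

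Genes around the set were read from lists chosen by function, and those named from them were picked after their values were seen. Of 30 further HIF targets tested in Panc1, 7 rose and 9 fell with TGFβ, beside 14% and 15.1% of all genes. With siKLF10 7 rose and 6 fell, beside 17.3% and 18.3%, and with siKLF10 under TGFβ 14 rose and 1 fell, beside 21.1% and 20.6%. In A549, 15 rose and 9 fell with TGFβ, beside 24.2% and 23.5%. The rises with TGFβ included LOX, which crosslinks collagen, at log2 1.29 ± 0.0936 in Panc1 and log2 3.11 ± 0.146 in A549. HILPDA, a lipid droplet gene induced by hypoxia, fell with TGFβ in Panc1 (log2 −0.62 ± 0.101) and A549 (log2 −1.07 ± 0.0920). Of 13 HIF machinery genes tested, 1 rose and 3 fell with TGFβ in Panc1 and 5 rose and 1 fell in A549, to be read against the same shares for TGFβ. CITED2, which competes with HIF for its coactivators, fell in Panc1 (log2 −1.18 ± 0.182) and A549 (log2 −1.98 ± 0.136).

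Of other glycolysis and pyruvate genes, 20 were tested in Panc1 and 23 in A549. With TGFβ 3 rose and 7 fell in Panc1, beside 14% and 15.1% of all genes, and 7 rose and 11 fell in A549, beside 24.2% and 23.5%. BPGM, which makes the effector of haemoglobin from a glycolytic intermediate, measured 248, 239 and 297 CPM with TGFβ, against 71.8, 69.996 and 58.3 CPM with siCont in Panc1 and rose (log2 1.97 ± 0.0862, adjusted p = 1.18e-13), as it did in A549 (log2 2.16 ± 0.1004, adjusted p = 6.82e-14). PDK4, a further pyruvate dehydrogenase kinase, measured 6.88 and 8.88 CPM in the libraries labelled siKLF10+TGFβ, 15.5 and 15.7 CPM with TGFβ, 104 and 105 CPM in the libraries labelled siKLF10, and 200.1 and 199 CPM with siCont in A549, falling with TGFβ (log2 −3.68 ± 0.106, adjusted p = 1.72e-17) and in the libraries labelled siKLF10 (log2 −0.93 ± 0.0854, adjusted p = 1.05e-07). With siKLF10 4 of these genes rose and 5 fell in Panc1, beside 17.3% and 18.3% of all genes. In the A549 libraries labelled siKLF10, where no fall of KLF10 was found, 2 rose and 6 fell, beside 9.57% and 9.96%. Of 5 glucose-sensing genes tested, 2 rose and 1 fell with siKLF10 in Panc1, to be read against the same shares. TXNIP and ARRDC4, glucose-sensing arrestins, were those that rose (log2 1.34 ± 0.0609 for TXNIP and log2 2.33 ± 0.102 for ARRDC4). In the A549 libraries labelled siKLF10, 2 of the 5 rose and 0 fell, beside 9.57% and 9.96%. ARRDC4 measured 8.24 and 8.79 CPM there, against 4.06 and 4.55 CPM with siCont.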

How the data were processed

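The authors deposited 1 table of read counts per library, with 23368 genes each, and per the submitters' processing notes TopHat, Bowtie2, HTSeq (0.6.0) and DESeq2 were used with hg19. Strand setting and annotation are not given in the sources used here. The 5 summary lines of each table were left out of library sizes, and reads in no feature were 33.6% to 36.9% of all counted reads in Panc1 and 57.6% to 60.1% in A549.

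Counts were analysed in R 4.3.3 with edgeR 4.0.16 (filterByExpr with a minimum count of 10 and a minimum total of 15, TMM scaling, robust quasi-likelihood test, 1 model with 4 group means per line, residual df 8 in Panc1 and 4 in A549). Line differences came from a joint model with 12 residual df. P-values were adjusted by Benjamini-Hochberg over all genes tested and called at 0.05. SEs are the fold change divided by the square root of F, and CPM are TMM-scaled within a line. Floors of 3 counts cover counting error only. Replicates of a group differed by more than sampling noise, so no library was counted as a copy. Chi-square per degree of freedom was 2.06 to 12.5 in Panc1 and 2.22 to 11.4 in A549. In Panc1 siKLF10+TGFβ it was 9.11 and 12.5 for A against B and C, and 2.06 for B against C. In Panc1 siKLF10 it was 10.5 for A against B. The 11.4 in A549 was between the 2 libraries labelled siKLF10+TGFβ.

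Members and lists were chosen with earlier results of these data known. Library values are given for 14 core genes and, in each comparison, for the called members with the 4 largest rises and 4 largest falls averaging at least 1 CPM. Alternatives were DESeq2 1.42.0, RLE and upper-quartile scaling, no filter, a replicate block, only the groups compared, and each library left out. Promoter windows are from RefSeq on GRCh38.p14, and no coordinates were converted from hg19.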

Additional observations from a re-analysis of the deposited data

Results flagged for a closer look

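The response to TGFβ differed after siKLF10 in 11 of 34 members tested in Panc1, by the interaction test in edgeR. It was higher for 10 and lower for 1, beside 2.56% and 1.86% of all genes. As log2 differences these were log2 1.55 for EPAS1, log2 0.998 for ALDOC, log2 0.95 for HK2, log2 0.79 for PFKFB3, log2 0.71 for PFKFB4, log2 0.61 for ANGPTL4, log2 0.48 for HIF1A, log2 0.46 for SLC2A1, log2 0.46 for LDHA, log2 0.36 for HK1 and log2 −0.42 for ADM. In A549, 9 of 37 members were selected by the same test, 3 higher and 6 lower, beside 3.26% and 3.23% of all genes. These were log2 0.97 for CA9, log2 0.72 for ANGPTL4, log2 0.59 for EGLN1, log2 −0.41 for ALDOA, log2 −0.42 for ENO1, log2 −0.51 for EGLN3, log2 −0.52 for GPI, log2 −0.83 for ADM and log2 −0.93 for SLC2A3. In Panc1 the call of SLC2A1 was lost without siCont A or B, TGFβ A, B or C or siKLF10 B or C (adjusted p = 0.0561 to 0.0901), that of ALDOC without siCont A, TGFβ B or C, siKLF10 A or B or siKLF10+TGFβ B (adjusted p = 0.0596 to 0.0968) and that of LDHA without siCont A or B, TGFβ B or siKLF10 C (adjusted p = 0.053 to 0.0738). In A549 the call of CA9 was lost without siCont A or B, TGFβ A or B, siKLF10 A or siKLF10+TGFβ B (adjusted p = 0.0641 to 0.183) and with DESeq2 (adjusted p = 0.0534), that of EGLN3 without siCont B, TGFβ A or B or siKLF10 B (adjusted p = 0.0541 to 0.115), that of ALDOA without siCont A or B, TGFβ A or B or siKLF10 A (adjusted p = 0.0622 to 0.16) and that of ENO1 without siCont A or B, TGFβ A or B or siKLF10 A (adjusted p = 0.085 to 0.159). The interaction of ANGPTL4 was higher in both lines and that of ADM lower in both.

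Effects that differed between the lines by a log2 of at least 0.75, Panc1 minus A549, are given here. For TGFβ they were log2 1.36 for CA12, log2 1.34 for NDRG1, log2 1.10 for LDHB, log2 0.80 for HIF1A, log2 −0.97 for ANGPTL4, log2 −1.04 for ENO2, log2 −2.32 for EGLN3, log2 −2.89 for VEGFA and log2 −3.68 for SLC2A3. For siKLF10 they were log2 −0.76 for SLC16A3, log2 −0.80 for HK1, log2 −0.80 for ENO2, log2 −0.90 for PFKFB4, log2 −0.90 for ALDOA, log2 −1.11 for EPAS1, log2 −1.44 for ALDOC, log2 −1.55 for EGLN3 and log2 −2.91 for SLC2A3. For siKLF10 under TGFβ they were log2 0.82 for ADM, log2 −0.82 for PFKL and log2 −0.99 for SLC16A3. At any size, the difference was called higher in 17.1% of all genes and lower in 13.8% for TGFβ. These shares were 8.59% and 8.65% for siKLF10, and 7.52% and 12.3% for siKLF10 under TGFβ. The EGLN3 and SLC2A3 differences rest on Panc1 levels near the count floor. The SLC16A3 call for siKLF10 was lost without A549 siCont A or B or A549 siKLF10 A or B (adjusted p = 0.0669 to 0.0942), the one under TGFβ was lost without A549 siKLF10+TGFβ B (adjusted p = 0.0632), and the EGLN3 call for siKLF10 was lost without Panc1 siCont A (adjusted p = 0.0836). These siKLF10 differences set a Panc1 group in which KLF10 fell against A549 libraries labelled siKLF10 in which no fall of KLF10 was found without TGFβ.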

How the results depend on the processing

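Of 5835 refits of a member's fold change under an alternative, 0 reversed a called direction, 5504 kept their side of the threshold, 217 lost it and 114 gained it. In Panc1 the calls held under every alternative run for 15 of 18 members with TGFβ, 23 of 24 with siKLF10, 14 of 18 with siKLF10 under TGFβ, 22 of 26 with TGFβ after siKLF10 and 8 of 11 in the interaction. In A549 these were 20 of 22, 6 of 15, 8 of 20, 21 of 26 and 5 of 9, and between lines 13 of 18, 17 of 22 and 7 of 10. Some counts moved by over 1.5 times, and the cause was not tested. DESeq2 called 1673 genes in the A549 libraries labelled siKLF10 (2758 by edgeR), 2649 with siKLF10 under TGFβ (3996) and 554 in the A549 interaction (916). With only the groups compared, 14 members rose in the A549 libraries labelled siKLF10 (9), beside 1855 of all genes (1351). With no filter 5 members were higher in the A549 interaction (3), beside 688 of all genes (460). Leaving out 1 library, all genes called ranged from 349 to 1035 in the Panc1 interaction (584). In A549 they ranged from 1326 to 1638 for siKLF10 (members 4 to 5 higher and 2 to 6 lower), from 2237 to 5409 under TGFβ (5 to 12 and 4 to 11) and from 379 to 2685 in the interaction (2 to 6 and 3 to 11). Between lines they ranged from 1570 to 2512 for siKLF10 (2597) and from 1895 to 3321 under TGFβ (2979), with 3 to 9 members lower. In A549 a left-out library leaves 1 in its group, which is then assumed to vary like the other groups. For single genes outside the 37, calls under the alternatives are not given.

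Same-letter libraries did not deviate together throughout Panc1, where r ran from −0.265 to 0.454. The median was −0.0205, against 0.00256 for different letters. The highest, 0.454, was between siKLF10 A and siKLF10+TGFβ A. In A549 same-letter r ran from −0.0257 to 0.171. With 2 libraries per group, different letters mirror these A549 values, so they cannot decide whether letters are pairs. Letters were used as names in the main fits. With the letter as a replicate block, genes called for TGFβ, siKLF10, siKLF10 under TGFβ, TGFβ after siKLF10 and the interaction numbered 3776, 4638, 5511, 5940 and 565 in Panc1 and 6943, 2973, 4235, 7695 and 1026 in A549. Between lines they numbered 4717 for TGFβ, 2613 for siKLF10 and 2985 under TGFβ, and no count moved by over 1.5 times. Results for EGLN3, CA9 and SLC2A3 in Panc1 are limited by their low counts there.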
